A study of Mus musculus with 6 samples.

Results

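The subunits of the oxidative phosphorylation system were examined in mouse colon by RNA-seq, as 83 genes of the nuclear genome and 13 genes of the mitochondrial genome, 96 of the 24517 genes in the count tables. The nuclear members were taken by symbol, as those beginning with Nduf followed by the letter a, b, c, s or v and a number, Sdha to Sdhd, and those beginning with Uqcr, Cox4 to Cox8 or Atp5. The mitochondrial members were ND1 to ND6, ND4L, COX1 to COX3, ATP6, ATP8 and CYTB. The rule uses gene symbols alone, although the system itself was chosen for description with earlier results of these data known. The control group comprised 3 libraries from NSD2fl/fl mice, which carry floxed Nsd2 alleles. The other group comprised 3 libraries from NSD2∆IE mice, in which Nsd2, encoding a histone methyltransferase, was deleted in the intestinal epithelium by Cre recombinase driven by the Villin promoter. All animals in both groups received a high-fat and cholesterol diet (HFCD), the labels giving 16 weeks of it, and were C57BL/6J per the study's methods. Age at the start of the diet was 7 to 8 weeks per the same methods. The labels call the 3 libraries of each group replicate samples and name no animals, so p-values measure the spread between these libraries, which may in part be technical.

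Oxidative phosphorylation is carried out in the inner mitochondrial membrane. Complexes I (NADH dehydrogenase) and II (succinate dehydrogenase) pass electrons to ubiquinone, complex III to cytochrome c and complex IV (cytochrome c oxidase) to oxygen, and complex V (ATP synthase) uses the resulting proton gradient to make ATP. Complex II is wholly nuclear-encoded, whereas the other complexes combine subunits made from nuclear genes with subunits made from mitochondrial DNA. Mitochondrial DNA is transcribed as long precursors, which are cut into separate transcripts. Several complex IV subunits have a ubiquitous form and a form restricted to tissues such as heart, skeletal muscle, brown fat or testis. In the colon, mature absorptive cells near the lumen are known for dense mitochondria and for the oxidation of butyrate.

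Libraries were of nearly equal depth, with 38041832 to 38604680 counts. Nsd2 was lower in every NSD2∆IE library, at 24.5, 23.1 and 27.5 CPM (each count divided by the size of its library, adjusted by the trimmed mean of M values, TMM) against 47.8, 59.1 and 68.9 CPM in NSD2fl/fl. The quasi-likelihood test of edgeR gave log2 fold change -1.23 (SE 0.16) with an adjusted p of 0.302. The groups also differed in sex-linked transcripts. Xist, which is transcribed from the inactive X chromosome, was read 0 to 4 times in NSD2fl/fl and 21217 to 24234 times in NSD2∆IE. The sum of the Y-linked genes Uty, Kdm5d, Eif2s3y and Ddx3y was 5058 to 6110 counts against 0 to 1. Genotype and this sex pattern therefore cannot be told apart, although the study's methods describe male mice. Principal component 1, with 51.1% of the variance, set NSD2fl/fl libraries 1 and 3 and NSD2∆IE library 1 apart from NSD2fl/fl library 2 and NSD2∆IE libraries 2 and 3. Hoxb13, a gene of the distal hindgut, was counted 14052, 25 and 12125 times in NSD2fl/fl against 12288, 197 and 1086 times in NSD2∆IE, and so fell along this split and not by genotype. Epithelial markers summed to 13677 to 22610 CPM against 13246 to 15069 CPM, so they were high in both groups. Markers of smooth muscle summed to 1680 to 4428 CPM in NSD2fl/fl and 5527 to 11888 CPM in NSD2∆IE. In bulk tissue, fewer cells of a type and less RNA per cell cannot be told apart.

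Nuclear members were abundant and differed in level by complex, where members were placed by symbol, so that Ndufa4 and Ndufa4l2 count with complex I. On the FPKM scale, which divides by gene length, 63 of the 82 nuclear members tested exceeded 100 FPKM as the mean of the 6 libraries. The median nuclear member had 116 FPKM in complex I, 187 FPKM in complex II, 243 FPKM in complex III, 309 FPKM in complex V and 448 FPKM in complex IV, so the order from lowest to highest ran I, II, III, V, IV. The highest nuclear level was that of Atp5b, the catalytic beta subunit of ATP synthase, at 1052, 1084 and 995 FPKM in NSD2fl/fl and 998, 1067 and 1077 FPKM in NSD2∆IE. Cox4i1, the ubiquitous form of the regulatory subunit 4 of cytochrome c oxidase, followed at a mean of 984 FPKM. The highest members of the remaining complexes were Uqcrh, the hinge protein of complex III, at 762 FPKM, Ndufa4 at 384 FPKM and Sdhb, the iron-sulphur subunit of succinate dehydrogenase, at 250 FPKM. In complex II the 4 subunits lay within 1.53-fold of each other, down to 164 FPKM for Sdha, the flavoprotein. In complex III the range was 5.09-fold, with Uqcrq lowest at 150 FPKM, and in complex V it was 19.7-fold, with Atp5j (coupling factor 6) lowest at 53.0 FPKM. These lengths are those implied by the files, and Atp5j was assigned 4137 bases and Uqcrq 1525 bases, against 546 bases for Uqcrh, so the assumed gene models enter the order. The lowest tested members of complexes I and IV were restricted isoforms, Ndufa4l2 at 1.22 FPKM and Cox8b at 2.00 FPKM.

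**Figure D1:**
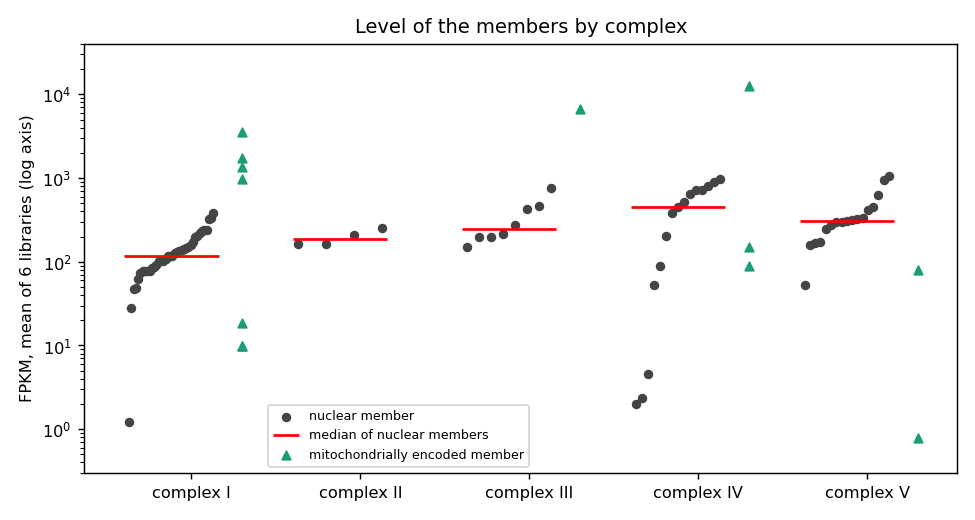
Mean FPKM of the 6 libraries (log axis) for each tested nuclear member (circles, with the median as a red line) and each mitochondrially encoded member (triangles), by complex. Medians of the nuclear members run from 116 FPKM in complex I to 448 FPKM in complex IV, and the mitochondrially encoded members spread from above all tested nuclear members to below all of them.

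The nuclear members were steady across libraries. Over the 6 libraries the median coefficient of variation of CPM was 8.10% for the 77 nuclear members with a log2 CPM of at least 5, against 13.2% for all 6163 genes at that level. In 73 of 82 the highest library was less than 1.5 times the lowest. The 9 exceptions were Ndufa4, Ndufb1, Cox4i1 and Uqcrq and the 5 tested restricted isoforms described below. Ndufa4 and Cox4i1 were higher in every library on the side of principal component 1 that held NSD2fl/fl library 2 and NSD2∆IE libraries 2 and 3 than in every library on the other side.

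Nuclear members showed little difference between genotypes. None of the 82 tested passed an adjusted p of 0.05, which 0.0306% of all 16347 genes tested passed, and 1 had an unadjusted p under 0.05 (background 11.1%). None passed the adjusted threshold under DESeq2 or limma either. The study's threshold joins an unadjusted p under 0.05 to a log2 fold change past 0.322 in either direction, and here 1 was higher in NSD2∆IE (background 8.05%) and none was lower (background 2.21%). The log2 fold change lay within 0.25 of 0 for 77 of 82 (93.9%, against 58.9% of all genes tested). Among genes with a log2 CPM of at least 5 the shares were closer, at 98.7% (76 of 77 members) and 75.3%. Of all 6163 genes at that level, 488 had an unadjusted edgeR p under 0.05, 169 were higher at the study's threshold and 202 were lower. None of the 77 members at that level was among them.

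The direction of this small difference depended on the scaling between libraries. The median log2 fold change of the nuclear members was -0.064 with TMM scaling and 0.065 with library totals alone. The median of all genes tested moved likewise, from -0.041 to 0.086, so relative to all genes the nuclear members differed by -0.022 and -0.021. Among genes with a log2 CPM of at least 5, the TMM medians were -0.083 for the 77 nuclear members and -0.106 for all 6163 genes. The sign of the relative difference thus also depended on the genes compared. With TMM scaling the libraries of both groups did not overlap for 3 members that were higher (background 11.4%) and 7 that were lower (background 7.28%) in NSD2∆IE. At a log2 CPM of at least 5 there were 0 higher and 7 lower of 77 members, against 235 higher and 744 lower of 6163 genes. On the deposited FPKM scale, which uses library totals, there were 11 that were higher (background 16.1%) and 0 that were lower (background 1.96%). The 83 nuclear members took 1.91%, 2.00% and 1.93% of all counts in NSD2fl/fl and 1.92%, 2.04% and 2.02% in NSD2∆IE. These shares amount to scaling by library totals, and their ranges overlapped.

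By complex, medians with TMM scaling were -0.035 for complex I, -0.076 for complex II, -0.088 for complex III, -0.095 for complex IV and -0.101 for complex V, both genomes included. All 4 members of complex II, all 9 of complex III and all 18 tested of complex V had a value below 0. As background, 9202 of all 16347 genes tested had a negative value, as did 4609 of the 6163 genes with a log2 CPM of at least 5. With library totals alone the 5 medians by complex lay between 0.031 and 0.097, so the sign was again set by the scaling. Complex I stayed highest and complex V lowest under both scalings, but not when single libraries were left out. With TMM scaling, complex II (-0.087) was above complex I (-0.098) without NSD2fl/fl library 1. Without NSD2∆IE library 1, complex III (-0.094) lay below complex V (-0.080). Under TMM scaling with all libraries, the 7 nuclear core subunits of complex I had a median of -0.062. These core subunits carry its flavin and iron-sulphur clusters. The 31 accessory subunits had a median of -0.035. The X-linked members Ndufa1, Ndufb11 and Cox7b had a median of -0.145, and none of the 3 had an adjusted p under 0.696.

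**Figure D2:**
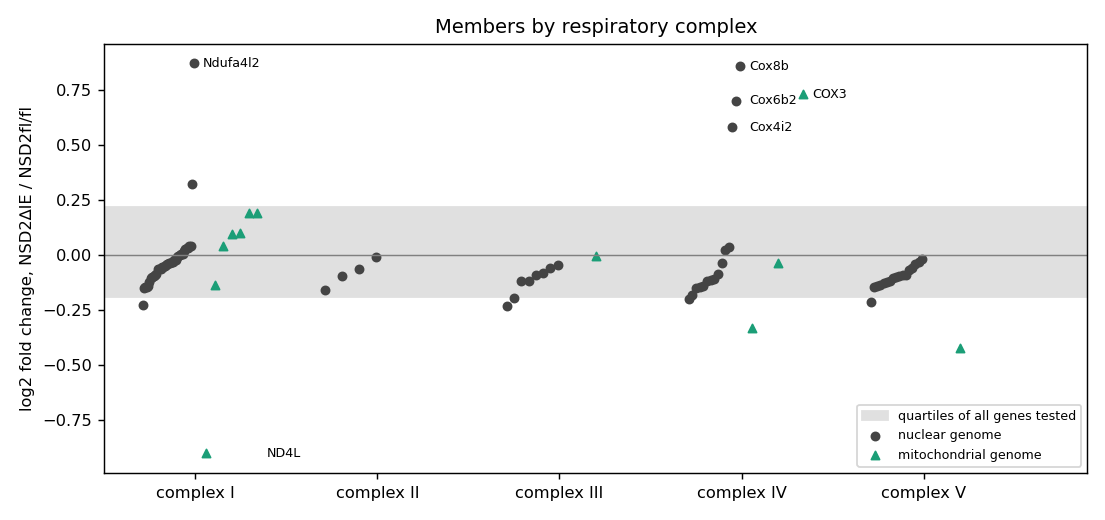
Log2 fold change of each tested member (NSD2∆IE over NSD2fl/fl, TMM scaling) by complex, for nuclear (circles) and mitochondrially encoded (triangles) genes, with the grey band spanning the quartiles of all genes tested. All nuclear members except a few isoforms of complexes I and IV lie close to 0, and the mitochondrially encoded members spread more widely.

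The remaining higher members of the 8 with the smallest p, Ndufs5, Ndufb10 and Ndufb7, had log2 fold changes of 0.04, 0.03 and 0.03. Among the lower members, those with the smallest p were Ndufa12, an accessory subunit of complex I, and Uqcrb, the ubiquinone-binding protein of complex III. Ndufa12 had 110, 123 and 134 CPM in NSD2fl/fl and 95.7, 111 and 107 CPM in NSD2∆IE, and the log2 fold change was -0.23 (SE 0.12, adjusted p = 0.539). Uqcrb had 252, 288 and 287 CPM against 235, 250 and 222 CPM, and the groups did not overlap on this scale (log2 fold change -0.23, SE 0.12, adjusted p = 0.547). On the FPKM scale the Uqcrb values were 466, 486 and 489 against 442, 468 and 437, and the groups did overlap. The others of this kind were Uqcr10 (-0.20), Atp5g3 (-0.21), Cox5a (-0.20), Cox6a1 (-0.18), Sdhd (-0.16) and Ndufa9 (-0.14), the log2 fold change standing in brackets and every adjusted p being at least 0.575. Together they span all 5 complexes, and Atp5g3 encodes the c subunit of the ATP synthase rotor. The c subunit is made from 3 genes whose mature proteins are identical. Atp5g1 stood at 48.3% to 66.4% of Atp5g2 in FPKM across libraries and at 47.8% to 55.9% of Atp5g3, and both ratios overlapped between genotypes.

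Apart from Ndufa4, the nuclear members with a log2 fold change beyond 0.25 were low-level restricted isoforms. Of the 5 restricted isoforms tested, all had a positive log2 fold change, with a median of 0.70. As background, 7145 of all 16347 genes tested had a positive value, but only 1554 of the 6163 with a log2 CPM of at least 5. Positive values were thus more frequent at the lower levels, where these isoforms lie. Ndufa4l2, a paralogue of Ndufa4 that is known for induction by hypoxia and for expression in pericytes, lies on chromosome 10 (127509274-127517154, mm10). Its CPM was 1.01, 1.02 and 0.90 in NSD2fl/fl and 1.08, 1.97 and 2.31 in NSD2∆IE. The controls were close together, NSD2∆IE library 1 was just above them and libraries 2 and 3 were further above. On the log2 scale the difference was 0.87 (SE 0.36, adjusted p = 0.440), and the unadjusted edgeR p of 0.0462 made it the member counted at the study's threshold. That call rested on 32 to 96 counts per library and ended when any library other than NSD2∆IE library 1 was left out (unadjusted edgeR p from 0.0748 to 0.173). It also ended with limma-voom (unadjusted p = 0.0585), and in edgeR with no filter on low counts (0.0551), with a replicate block (0.0844) and with the principal component side as a covariate (0.120).

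Cox6b2, the testis-restricted form of the subunit at the dimer interface of cytochrome c oxidase, had 2.65, 2.20 and 1.35 CPM against 2.98, 3.66 and 3.47 CPM. The groups did not overlap, although NSD2fl/fl library 1 and NSD2∆IE library 1 were close (log2 fold change 0.70, SE 0.30, adjusted p = 0.457). Cox8b, the form of the smallest subunit known from heart, skeletal muscle and brown fat, had 0.70, 0.34 and 0.48 CPM against 1.31, 0.71 and 0.75 CPM. Again the groups did not overlap, by a margin of under 0.01 CPM between NSD2fl/fl library 1 and NSD2∆IE library 2 (log2 fold change 0.86, SE 0.44, adjusted p = 0.532), on 12 to 52 counts per library. Cox4i2, a lung and pericyte form of subunit 4, had 1.09, 1.84 and 1.12 CPM against 1.34, 2.90 and 1.83 CPM. Its groups overlapped (log2 fold change 0.58, adjusted p = 0.635), and it was higher in every library on the side of NSD2fl/fl library 2 than on the other. Cox7a1, the muscle form of subunit 7a, was far more abundant, at 29.4, 16.9 and 26.1 CPM against 32.6, 21.3 and 19.8 CPM, with a log2 fold change of 0.03. Cox6a2, another muscle form, had 0 to 6 counts in NSD2fl/fl and 1 to 11 in NSD2∆IE and was not tested.

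Beside their ubiquitous partners these forms were minor. In FPKM, Cox4i2 stood at 0.179% to 0.355% of Cox4i1, Cox8b at 0.122% to 0.587% of Cox8a, Ndufa4l2 at 0.219% to 0.406% of Ndufa4 and Cox6b2 at 0.309% to 0.822% of Cox6b1, whereas Cox7a1 stood at 8.80% to 19.2% of Cox7a2. A ratio within a library does not depend on the scaling between libraries. The log2 ratio of Cox6b2 to Cox6b1 was -7.49 ± 0.52 (SD, n = 3) in NSD2fl/fl and -6.62 ± 0.09 (SD, n = 3) in NSD2∆IE, and the groups did not overlap. That of Cox4i2 to Cox4i1 was -9.16 ± 0.07 against -8.59 ± 0.39, again without overlap, while those of Cox8b, Ndufa4l2 and Cox7a1 to their partners overlapped.

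Markers of some cell types known to carry these forms moved with the groups. Of the 10 smooth muscle markers, all tested, 9 passed the study's threshold as higher, where the share over all genes tested was 8.05%. Other lists moved too, since 10 of 10 enteric nervous system markers and 3 of 7 fibroblast markers passed as higher. For endothelium it was 0 of 7. Of the 8 pericyte markers, 2 (Ndufa4l2 and Cox4i2) are members themselves. The other 6 summed to 215 to 292 CPM in NSD2fl/fl and 339 to 629 CPM in NSD2∆IE, and 2 of the 6 passed the study's threshold as higher. Most of each sum was the pericyte gene Rgs5, with 176, 120 and 151 CPM against 222, 495 and 512 CPM. Without Rgs5 the sums of the remaining pericyte markers overlapped between the groups. Of 12 skeletal muscle markers, 10 had a row, 6 could be tested and 1 passed. With all 10 they summed to 10.5 to 17.2 CPM against 19.7 to 43.8 CPM, but without Ckm the sums were 3.56 to 12.1 CPM against 6.99 to 8.29 CPM and overlapped. Ckm, the marker that passed, is the muscle creatine kinase and stood at 6.91, 4.15 and 6.35 CPM against 11.5, 32.2 and 35.5 CPM (adjusted p = 0.302). The 6 brown adipocyte markers that are not members summed to 26.0 to 73.4 CPM against 25.5 to 36.2 CPM, and Ucp1, which defines that cell type, was at 0 CPM in 5 libraries and 0.06 CPM in the sixth. Of 10 adipocyte markers, 9 could be tested and 4 passed as higher, with sums of 127 to 276 CPM against 231 to 285 CPM. The part of these cells in the isoform differences was not tested.

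Ndufa4 itself, first assigned to complex I and now regarded as a subunit of complex IV, had the largest log2 fold change of the abundant nuclear members. Its CPM was 129, 200 and 177 in NSD2fl/fl and 160, 229 and 246 in NSD2∆IE, with overlap between the groups (log2 fold change 0.33, SE 0.22, adjusted p = 0.639). AA467197, the mouse gene for NMES1, which can take the place of NDUFA4 in cytochrome c oxidase, is not a member by the symbol rule and belonged to the list of subunits that the rule leaves out. Its CPM was 307, 490 and 406 in NSD2fl/fl and 272, 290 and 193 in NSD2∆IE, so every NSD2∆IE library was below every control. On the log2 scale the difference was -0.67 (SE 0.23, adjusted p = 0.369), and the gene passed the study's threshold as lower. The ratio of the pair was formed after both values had been seen. AA467197 stood at 1.85, 1.90 and 1.78 times Ndufa4 in FPKM in the NSD2fl/fl libraries and at 1.32, 0.98 and 0.61 times in the NSD2∆IE libraries. The log2 ratio of counts was 1.2 ± 0.05 (SD, n = 3) against 0.25 ± 0.56 (SD, n = 3), without overlap and with a wide spread among the NSD2∆IE libraries. Without NSD2fl/fl library 2, NSD2fl/fl library 3 or NSD2∆IE library 3, AA467197 no longer had an unadjusted edgeR p under 0.05 (0.0621, 0.0523 and 0.0773).

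**Figure D3:**
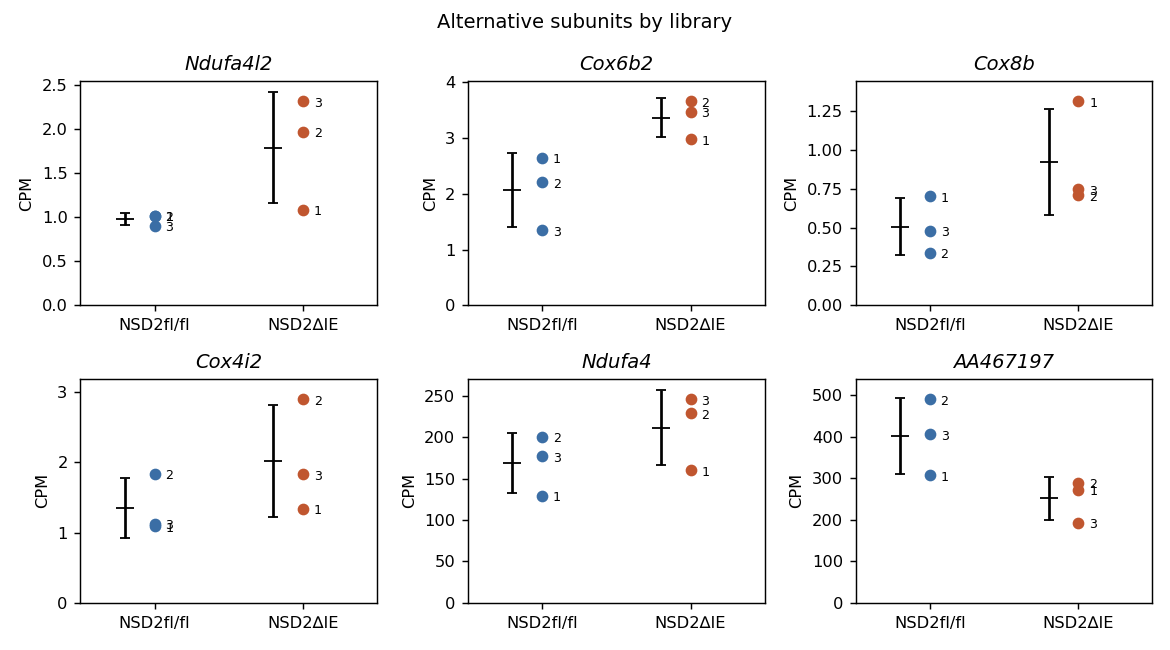
CPM with TMM scaling of 4 restricted isoforms and of Ndufa4 and AA467197 in each library (points, numbered by replicate) with the mean and SD of each group (bar and whiskers, n = 3), each axis starting at 0. Ndufa4l2, Cox6b2 and Cox8b lie higher in NSD2∆IE without overlap, Cox4i2 and Ndufa4 overlap, and AA467197 lies lower without overlap.

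The 13 mitochondrially encoded members fell into groups of very different level. COX1, the catalytic subunit of cytochrome c oxidase, had a mean of 12732 FPKM, 12.2 times that of Atp5b. CYTB, the cytochrome b of complex III, had 6727 FPKM, and the complex I subunits ND1, ND4, ND5 and ND2 had 3512, 1751, 1362 and 963 FPKM. COX1 alone held 51.3% to 57.0% of all counts on these 13 genes. In contrast, COX3 had 151 FPKM, COX2 90.1 FPKM, ATP6 79.2 FPKM, ND4L 18.6 FPKM, ND3 9.94 FPKM and ATP8 0.79 FPKM. Thus the lowest of the first 6 genes was 6.38 times the highest of the second 6. ND6, the only member transcribed from the other strand of the mitochondrial DNA, had 9.98 FPKM.

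Apart from ND6, the low genes are neighbours among the protein-coding genes of the mitochondrial genome, COX2, ATP8, ATP6, COX3, ND3 and ND4L, from position 7013 to 10173 (GRCm38, GENCODE M21). COX1 precedes the run and ND4 follows it. A stretch of chromosome 1 (chr1:24611535-24616197, minus strand) holds annotated unprocessed pseudogenes that copy the same region, in order Gm29216 (the end of COX1), Gm28661 (COX2), Gm10925 (ATP6), Gm28437 (COX3), Gm28438 (ND3), Gm10222 (ND4L) and Gm28439 (the beginning of ND4). Over the aligned bases the copies of COX2, ATP6, COX3, ND4L and ND4 matched the mitochondrial gene at 100% of positions. The copy of ND3 matched at 344 of 345 bases and that of COX1 at 486 of 492 bases. The first 60 bases of 3 pairs are shown because they carry this identity, with capitals at the base that differs (T3C, counted from 1 at the first base of ND3):
COX2: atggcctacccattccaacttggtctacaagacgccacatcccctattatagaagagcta
Gm28661: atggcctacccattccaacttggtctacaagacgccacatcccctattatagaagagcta
COX3: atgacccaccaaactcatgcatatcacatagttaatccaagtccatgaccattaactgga
Gm28437: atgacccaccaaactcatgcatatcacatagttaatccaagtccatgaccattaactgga
ND3: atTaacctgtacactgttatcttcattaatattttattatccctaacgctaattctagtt
Gm28438: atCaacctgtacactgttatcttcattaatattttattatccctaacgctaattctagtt

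Each transcript was divided into all windows of 100 bases, and a window was called shared if it occurred exactly in the transcript of another gene. COX2 (99.5%), ATP6 (99.5%), COX3 (99.9%), ND3 (97.6%) and ND4L (98.5%) consisted nearly wholly of shared windows. ND4 had 60.8%, COX1 30.8% and ND2 3.19%, and no window of ND1, ND5, ND6 or CYTB was shared. ATP8 had none either, although it lies between genes with annotated copies and shares 43 bases with ATP6. Only annotated transcripts were searched, so a copy of ATP8 outside them would not be seen. The stretch of chromosome 1 between the copy of ATP6 (ending at 24614651) and that of COX2 (starting at 24614885) was not searched. None of the pseudogenes named above had a row in the count tables. The read length and the treatment of reads that align to several places are not given in the sources used here, and the part of shared sequence in the low counts was not tested. The values of these genes are therefore uncertain as levels of mitochondrial RNA. Among the 82 nuclear members matched to a transcript, 53 had no shared window, 16 had over 10% and only Atp5l (69.0%, with Gm10221) had over 50%.

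**Figure D4:**
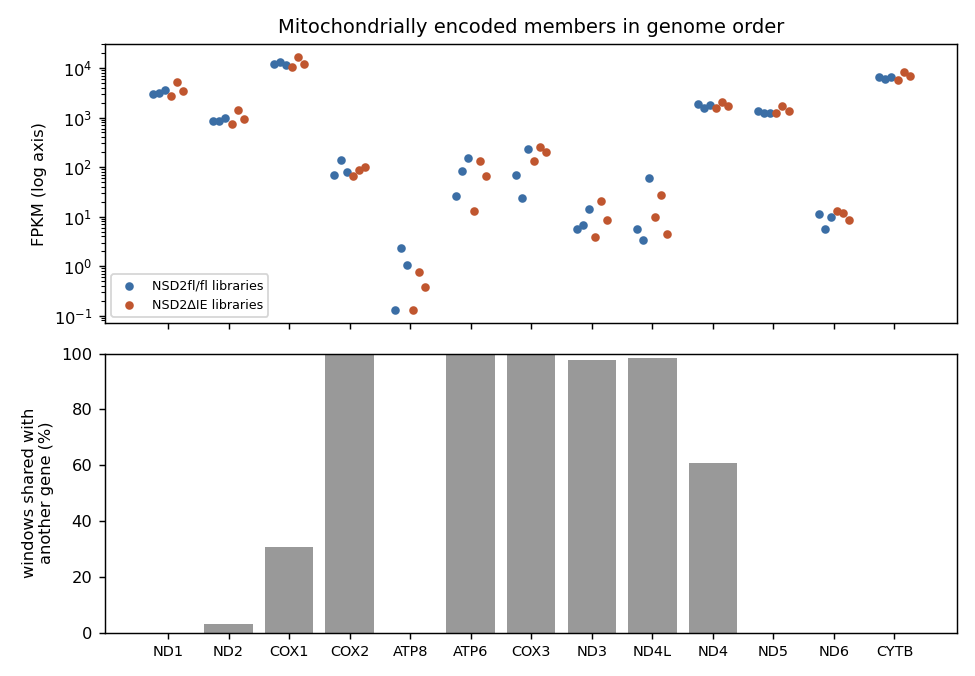
Upper panel, FPKM (log axis) of the 13 mitochondrially encoded members in each NSD2fl/fl (blue) and NSD2∆IE (orange) library, in genome order. Lower panel, percent of 100-base windows of the same transcript found exactly in another gene's transcript, which is above 97% for COX2, ATP6, COX3, ND3 and ND4L, the genes below 300 FPKM in every library other than ATP8 and ND6.

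The mitochondrially encoded members did not differ between genotypes beyond the spread of the libraries. None of the 12 tested had an adjusted p under 0.05 or an unadjusted p under 0.05 with edgeR, and none had an adjusted p under 0.05 with DESeq2 or limma. The libraries did not separate by genotype for any of them. COX1 had 18425, 22007 and 19398 CPM in NSD2fl/fl and 15653, 25503 and 17239 CPM in NSD2∆IE (log2 fold change -0.04, SE 0.32, adjusted p = 0.975). CYTB had 7456, 7469 and 8175 CPM against 6514, 9338 and 7219 CPM (log2 fold change -0.002, SE 0.25). ND1 had 2867, 3222 and 3661 CPM against 2551, 4810 and 3056 CPM (log2 fold change 0.10, SE 0.29). For each of ND1, ND2, COX1, ND4, ND5 and CYTB, NSD2∆IE library 2 was the highest of all libraries and NSD2∆IE library 1 the lowest, by 1.32-fold for ND4 to 1.89-fold for ND1 and ND2. Both extremes thus lay in the same group. ND2, ND4 and ND5 had log2 fold changes of 0.10, -0.14 and 0.04, and without NSD2∆IE library 2 those of ND1 and ND2 were both -0.21.

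The low mitochondrial genes varied most and showed no common direction. COX3 had 54.3, 19.8 and 190 CPM in NSD2fl/fl and 103, 191 and 145 CPM in NSD2∆IE, a 9.64-fold range over the libraries (log2 fold change 0.73, SE 0.74, adjusted p = 0.742). ATP6 had 17.6, 60.3 and 111 CPM against 8.65, 89.7 and 42.2 CPM, a 12.8-fold range (log2 fold change -0.42, SE 0.88). ND4L had 1.69, 1.1 and 19.4 CPM against 2.85, 7.80 and 1.23 CPM. Its log2 fold change of -0.90 (SE 1.16) turned to 1.5 without NSD2fl/fl library 3, which held the value of 19.4 CPM. COX2 (-0.33, SE 0.30), ND3 (0.19, SE 0.65) and ND6 (0.19, SE 0.30) gave the remaining log2 fold changes. ATP8, with 1 to 18 counts per library, was not tested.

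The counts of the 2 genomes were then set against each other within each library. The 13 mitochondrially encoded members took 3.52%, 3.56% and 3.54% of all counts in NSD2fl/fl and 3.07%, 4.85% and 3.57% in NSD2∆IE. The control libraries lay within 0.05 percentage points of each other, while NSD2∆IE library 1 was below them and library 2 above them. The ratio of mitochondrial to nuclear counts was 1.84, 1.78 and 1.83 in NSD2fl/fl and 1.60, 2.38 and 1.77 in NSD2∆IE. On the log2 scale it was 0.86 ± 0.03 (SD, n = 3) against 0.92 ± 0.30 (SD, n = 3), a difference of 0.055 that was smaller than the spread within NSD2∆IE and turned to -0.112 without NSD2∆IE library 2. Within complexes that draw on both genomes the difference was 0.04 for complex I, 0.09 for complex III and 0.04 for complex IV. For complex V, where only the low genes ATP6 and ATP8 are mitochondrial, the log2 ratio ranged from -8.68 to -6.16 in NSD2fl/fl and from -9.66 to -6.38 in NSD2∆IE.

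**Figure D5:**
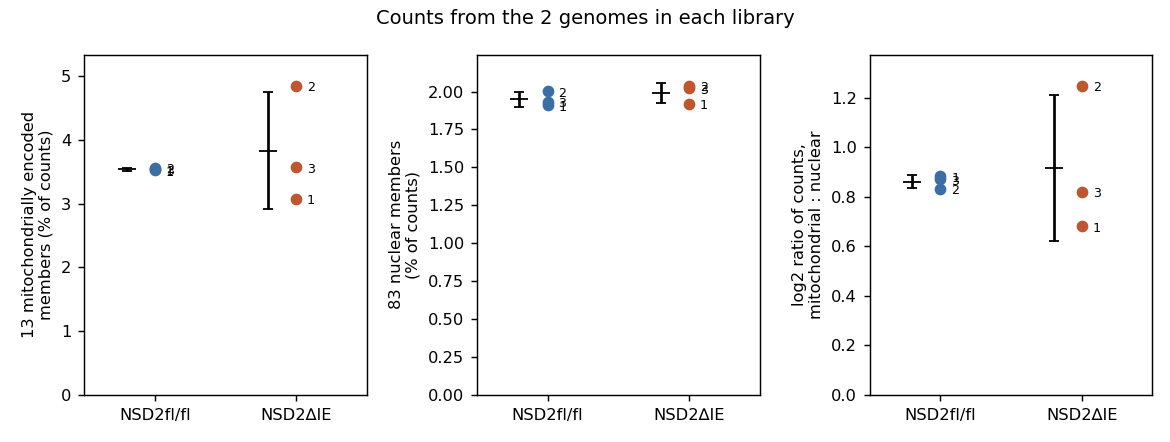
Share of all counts taken by the 13 mitochondrially encoded members (left) and by the 83 nuclear members (middle), and the log2 ratio of both (right), in each library (points, numbered by replicate) with the mean and SD of each group (n = 3), each axis starting at 0. The 3 control libraries lie close together, NSD2∆IE libraries 1 and 2 lie below and above them for the mitochondrial genome, and the nuclear shares overlap.

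Most other genes of the pathway also differed little. Of 55 assembly factors tested, 2 were lower at the study's threshold and none was higher, against 2.21% and 8.05% of all genes. They were Nubpl, which delivers iron-sulphur clusters to complex I, at 6.91, 6.70 and 6.57 CPM in NSD2fl/fl and 5.45, 4.29 and 4.51 CPM in NSD2∆IE (log2 fold change -0.50, SE 0.18, adjusted p = 0.383), and Coa4, a complex IV assembly factor (-0.41, SE 0.17, adjusted p = 0.432). Both calls depended on the processing, since Nubpl no longer had an unadjusted p under 0.05 in 6 of 17 other fits and Coa4 in 8 of 17, among them library totals alone (0.0899 and 0.101). Of 43 genes for the maintenance and expression of mitochondrial DNA, none passed the study's threshold in either direction, and the smallest unadjusted p values belonged to Mterf4 (-0.27, adjusted p = 0.485) and Tbrg4 (-0.19, adjusted p = 0.501). Tfam, which packages mitochondrial DNA and starts its transcription, had 47.2, 57.7 and 61.7 CPM against 52.9, 57.5 and 58.7 CPM. Of 18 genes of pyruvate dehydrogenase and the tricarboxylic acid cycle, none passed, and all 18 had a log2 fold change within 0.25 of 0. Mdh2 (-0.17) and Cs (-0.24), for malate dehydrogenase and citrate synthase, had the smallest p values there.

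Of 19 transcriptional regulators tested, 1 was lower at the study's threshold (background 2.21%) and none was higher (background 8.05%). It was Ppard, a nuclear receptor that drives fatty acid oxidation, with 203, 278 and 205 CPM in NSD2fl/fl and 154, 169 and 147 CPM in NSD2∆IE (log2 fold change -0.55, SE 0.16, adjusted p = 0.317). The corepressor Nrip1 followed (-0.26, SE 0.11, adjusted p = 0.441). Ppargc1a, the coactivator of mitochondrial biogenesis, had 72.9, 28.7 and 25.5 CPM against 35.5, 29.4 and 24.2 CPM, the high value lying in NSD2fl/fl library 1. Of the 5 subunits and electron carriers outside the symbol rule, AA467197 was the only 1 to pass. Cycs, for cytochrome c, had 176, 347 and 319 CPM against 198, 239 and 226 CPM (log2 fold change -0.35, adjusted p = 0.661), and Cyc1, Ndufab1 and Atpif1 lay between -0.11 and 0.04.

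Promoter sequence, which the symbol rule did not use, was also examined. RefSeq promoters (GRCm38.p6, 250 bases before to 50 after the gene start) were found for 68 of 83, and 4 short motifs were searched on both strands. Each was absent from the promoters of most members. The shares below are of genes with the motif in any of their promoters, and are descriptions without a test. None of these letter strings contains another. The NRF1 motif (GCGCANGCG) was present for 29.4% of the members, 13% of the genes tested and 7.03% of all genes with a promoter. The YY1 motif (AANATGGCG) was present for 14.7%, 4.91% and 2.76%, and the ETS motif (CCGGAAG) for 25%, 17.2% and 9.93%. The GC box (GGGCGG), in contrast, was present for 39.7% of the members and 63.3% of the genes tested. Cox8a, the ubiquitous form, and Cox8b, the restricted form, are shown because they encode the same subunit. In level, Cox8b stood at under 1% of Cox8a in every library. Other isoform pairs varied in the ETS motif, which was found for Cox6b1 and not Cox6b2, but for neither Cox7a2 nor Cox7a1. A link between motif and level was not tested. Capitals mark the ETS motif on either strand, which occurs in Cox8a (chr19:7217567-7217866, minus strand) and in this window of Cox8b (chr7:140900397-140900696, minus strand) does not:
Cox8a: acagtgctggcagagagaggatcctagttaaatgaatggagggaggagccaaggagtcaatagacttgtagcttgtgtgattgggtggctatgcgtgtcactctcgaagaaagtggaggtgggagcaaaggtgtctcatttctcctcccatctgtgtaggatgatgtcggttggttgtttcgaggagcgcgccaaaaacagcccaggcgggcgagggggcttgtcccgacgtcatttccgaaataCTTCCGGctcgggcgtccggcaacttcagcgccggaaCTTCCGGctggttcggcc
Cox8b: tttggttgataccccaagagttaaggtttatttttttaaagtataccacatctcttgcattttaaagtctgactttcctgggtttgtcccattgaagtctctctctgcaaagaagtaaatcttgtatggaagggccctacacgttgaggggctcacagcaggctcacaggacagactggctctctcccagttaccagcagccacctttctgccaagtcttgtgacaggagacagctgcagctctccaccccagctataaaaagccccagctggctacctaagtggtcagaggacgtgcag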

How the data were processed

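Total RNA from colon was extracted with TRIzol. Per the labels' processing notes, the submitters used fastp, HISAT2, HTSeq and R 3.2.0 with the mm10 build. The annotation, strand setting and treatment of multiply aligned reads are not given in the sources used here. The authors deposited a whole-number read count per gene and library, and an FPKM value per gene and library. Over 17863 genes read in all libraries, each count and FPKM pair implied the same whole-number gene length in all 6 libraries (within 0.0783 bases), so FPKM rests on library totals.

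Counts were fitted with edgeR 4.0.16 (R 4.3.3): 16347 genes passed filterByExpr, TMM factors scaled the library sizes, the quasi-likelihood test (two-sided, no covariates) compared NSD2∆IE with NSD2fl/fl, and p-values were adjusted over all genes by the Benjamini-Hochberg method. Of the 96 members, 94 were tested, all but Cox6a2 and ATP8. The common dispersion was 0.0967, so the spread between libraries and not the depth limited precision for all but the low isoforms. Named genes were the 13 mitochondrially encoded genes, the nuclear members with the 8 smallest p in each direction, isoform pairs, the highest and lowest member of each complex and the 2 smallest p of each pathway list. Members and lists were chosen with earlier results of these data known. Shared windows used GENCODE M21 transcripts and promoters used RefSeq. Cox7b2, Cox8c and 11 other listed symbols without a count row were left out. Alternatives were RLE, upper-quartile, library-total and nuclear-only scaling, DESeq2 1.42.0, limma 3.58.1, no filter, log2 FPKM with a pseudocount of 1 or 0.1, a replicate block, a principal component covariate, a fold of 1.5 and leaving out each library.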

Additional observations from a re-analysis of the deposited data

How the results depend on the processing

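The alternatives changed no adjusted call, since 0 of the 94 tested members had an adjusted p under 0.05 in any of the 17 other fits. The signs of the medians were set by the scaling. With library totals alone, log2(FPKM + 1) and log2(FPKM + 0.1), respectively, the median log2 fold change was 0.065, 0.065 and 0.066 for nuclear members, 0.097, 0.095 and 0.096 for complex I, 0.050, 0.052 and 0.053 for complex II, 0.043, 0.042 and 0.042 for complex III, 0.034, 0.037 and 0.038 for complex IV and 0.031, 0.034 and 0.034 for complex V, and upper-quartile factors gave 0.0053 for nuclear members and -0.0072 for complex II. The median of complex I lay between -0.098 and 0.015 when 1 library was left out. Relative to the median of all genes, the nuclear median lay between -0.090 and 0.005 over these fits. The number of nuclear members higher at the study's threshold was 2 with upper-quartile factors, library totals or DESeq2, 3 with either FPKM scale and 0 with no filter, and from 0 to 2 when 1 library was left out. It was 1 with limma-voom (Cox6b2), the replicate block (Ndufa4) and the principal component covariate (Cox8b), each time a different member from Ndufa4l2. COX3 joined without NSD2fl/fl replicate 3 (range of the mitochondrially encoded count 0 to 1), and COX2 counted as 1 lower member with the principal component side as a covariate. The cause was not tested.

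Signs turned for small values. COX1 was 0.034, 0.092, 0.063 and 0.063 and CYTB 0.066, 0.124, 0.110 and 0.110 with upper-quartile factors, library totals, log2(FPKM + 1) and log2(FPKM + 0.1). CYTB was 0.0023 with RLE factors or DESeq2. Cox7a1 was -0.0020 with no filter and -0.132 with limma-voom. With the principal component covariate Ndufb7 was -0.018, ND1 -0.034, ND2 -0.020, ND3 -0.216 and ND5 -0.0087. When each library was left out in turn, the log2 fold change ranged from -0.042 to 0.118 for Ndufs5, -0.059 to 0.113 for Ndufb7, -0.227 to 0.190 for Cox7a1, -0.213 to 0.284 for ND1, -0.213 to 0.288 for ND2, -0.278 to 0.109 for COX1, -0.546 to 0.071 for COX2, -1.30 to 0.282 for ATP6, -0.663 to 0.726 for ND3, -1.86 to 1.5 for ND4L, -0.137 to 0.140 for ND5, -0.035 to 0.367 for ND6 and -0.165 to 0.112 for CYTB.

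Whether the replicate numbers pair the libraries could not be decided. The correlations of deviations between libraries of the same number were 0.501, 0.643 and -0.166. Those between libraries of different numbers ran from -0.662 to 0.454, so the values for numbers 1 and 2 were the highest and that for number 3 was not. With a replicate block the nuclear median was -0.061, the call of Ndufa4l2 was lost, Ndufa4 was called instead (log2 fold change 0.33, unadjusted p = 0.0349), and ND3 and ND4L turned to -0.015 and 0.114. DESeq2 called 455 of all genes at an adjusted p under 0.05, against 5 with edgeR. Without the 6 low mitochondrial genes, an alternative chosen after seeing the data, the difference in the log2 ratio of both genomes was 0.054. Depth limited Cox6a2, Cox8b, Ndufa4l2 and ATP8, which had under 100 counts in every library.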
